A study of Mus musculus with 26 samples.

Results

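Chromosome 15 of mouse pluripotent cells was followed through 18 lists of open-chromatin peaks, 3 from each of 6 cultures. Its members were all peaks on that chromosome, merged to 2882 union regions where peaks of the lists overlapped or touched, out of 65031 union regions on the 19 autosomes of these lists and 75600 in all 26 lists of the series. The chromosome had been chosen from the lists of 1 culture, the formative stem cell line FS2, which held more of its peaks there than the other cultures did. Every value that sets FS2 against the other lines on chromosome 15 is therefore given as a description, without a test. Values of the other 18 autosomes are the background where they are given.

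ATAC-seq marks open chromatin by letting the Tn5 transposase cut and tag accessible DNA, so that promoters and enhancers in use appear as peaks. A peak list shows where the signal passed a threshold, and a region can leave a list because it is closed or because the library is shallow. Pluripotent cells pass through naive, formative and primed states, which embryonic stem (ES) cells, formative stem cells and epiblast stem cells (EpiSCs) represent in culture. Mouse chromosome 15 carries among others the type II keratin cluster, the Hoxc cluster, Myc, the acetyltransferase gene Ep300 and several very long genes of neural and adhesion proteins.

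The first set has 3 libraries of each of 6 cultures, all mouse. FS1 (passage 21) and FS2 (passage 29) are formative stem cells grown with A3XR. EpiSC_AF (passage 22) was grown with AF, while EpiSC_AFX1 (passage 14) and EpiSC_AFX2 (passage 16) were both grown with AFX. The naive culture, ES (passage 16), was grown with 2iL. A second set, named Rd2 in the labels, held 2 libraries of ES (passage 33), 2 of EpiSCs in AFX (passage 16) and 4 of EpiLC, cells that were made from ES by 2 days with AF and KSR and then sorted for low GFP. The source label of the ES libraries of the second set is Rd2GFP. Beyond that name the labels used here give no strain or genotype of the cells, and each culture stands for 1 passage. Nothing in them says that the 3 libraries of a line came from separate cultures, so the p-values below measure only the spread between these libraries.

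The sequences printed below lie just before the starts of chromosome 15 genes and were not cut to the bounds of a peak. Most are of genes whose promoters FS2 held and no other line held once all lists were cut to the same length. The first 6 below are promoters with a peak in at least 2 FS2 lists and in none of the other 15 lists at that length. Syce3, a synaptonemal complex protein, follows because its promoter had a peak in all 3 FS1 and all 3 FS2 lists as deposited and in no list of the other 4 lines. Zbed4 and Triobp are shown for contrast. Merged regions that overlap their promoters had a peak in at least 2 lists of every line and ranked far lower in FS2 than elsewhere. Each is 200 bases of the coding strand ending at the base before the start, from the RefSeq promoter table for GRCm38.p6, the same assembly as mm10. Capitals mark each CpG, a C followed by a G, which is dense in many housekeeping promoters.
Rpap3 (chr15:97705823-97706022, - strand): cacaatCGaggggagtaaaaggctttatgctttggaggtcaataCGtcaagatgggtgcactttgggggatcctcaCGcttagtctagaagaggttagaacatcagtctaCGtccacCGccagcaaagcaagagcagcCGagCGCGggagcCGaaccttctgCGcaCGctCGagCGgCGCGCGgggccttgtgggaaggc
Zfp641 (chr15:98296162-98296361, - strand): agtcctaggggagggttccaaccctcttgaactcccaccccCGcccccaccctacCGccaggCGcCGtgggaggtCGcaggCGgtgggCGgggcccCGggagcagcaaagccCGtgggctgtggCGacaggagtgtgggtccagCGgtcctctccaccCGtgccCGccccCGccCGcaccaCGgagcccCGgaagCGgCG
Adamts12 (chr15:11064573-11064772, + strand): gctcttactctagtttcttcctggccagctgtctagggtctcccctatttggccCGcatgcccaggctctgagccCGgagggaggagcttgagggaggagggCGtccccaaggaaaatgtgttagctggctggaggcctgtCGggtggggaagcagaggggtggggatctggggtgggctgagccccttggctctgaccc
Cpne8 (chr15:90679389-90679588, - strand): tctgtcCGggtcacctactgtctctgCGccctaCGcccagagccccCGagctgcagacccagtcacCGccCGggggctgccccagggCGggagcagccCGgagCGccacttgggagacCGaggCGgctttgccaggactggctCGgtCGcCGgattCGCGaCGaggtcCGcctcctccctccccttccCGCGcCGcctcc
Pou6f1 (chr15:100599985-100600184, - strand): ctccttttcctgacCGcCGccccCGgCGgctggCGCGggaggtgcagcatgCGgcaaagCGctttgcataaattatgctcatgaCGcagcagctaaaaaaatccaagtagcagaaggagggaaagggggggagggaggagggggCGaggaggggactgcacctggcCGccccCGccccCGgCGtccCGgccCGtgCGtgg
Ccdc65 (chr15:98707994-98708193, + strand): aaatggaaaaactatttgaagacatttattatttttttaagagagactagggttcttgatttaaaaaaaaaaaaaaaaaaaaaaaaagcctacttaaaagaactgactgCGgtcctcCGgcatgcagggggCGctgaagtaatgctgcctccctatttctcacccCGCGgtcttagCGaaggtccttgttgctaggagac
Syce3 (chr15:89410264-89410463, - strand): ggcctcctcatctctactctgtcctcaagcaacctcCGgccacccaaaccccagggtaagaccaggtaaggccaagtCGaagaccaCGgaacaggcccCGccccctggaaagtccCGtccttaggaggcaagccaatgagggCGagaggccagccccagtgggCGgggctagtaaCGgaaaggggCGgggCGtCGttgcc
Zbed4 (chr15:88751511-88751710, + strand): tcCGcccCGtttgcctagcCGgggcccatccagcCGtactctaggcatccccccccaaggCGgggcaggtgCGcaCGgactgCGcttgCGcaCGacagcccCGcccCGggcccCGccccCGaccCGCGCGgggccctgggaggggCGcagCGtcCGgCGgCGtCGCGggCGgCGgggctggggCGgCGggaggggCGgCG
Triobp (chr15:78982856-78983055, + strand): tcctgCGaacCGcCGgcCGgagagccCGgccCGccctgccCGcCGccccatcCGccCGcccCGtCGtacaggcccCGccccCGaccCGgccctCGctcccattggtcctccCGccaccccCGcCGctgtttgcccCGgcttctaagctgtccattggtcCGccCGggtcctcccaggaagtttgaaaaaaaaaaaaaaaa

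These 200-base stretches ranged from CpG-poor to CpG-dense. Adamts12, a secreted metalloprotease, had 4 CpG and Ccdc65, a protein of motile cilia, had 6. Cpne8, a copine, had 21 and Zfp641, a zinc finger protein, had 19. Zbed4 had 30 and Triobp, an actin-binding protein, had 22. Whole windows of 300 bases ran from 250 before to 50 after a start. Over them, the 16 promoters held at equal list length by FS2 and by no other line had a median GC content of 61.8%. Their median CpG observed over expected was 0.725. The 67 promoters held by all 6 lines had 64.3% and 0.781. The 137 promoters with no peak in any first-set list as deposited, a rule at another list length than that of the 16, had 50% and 0.28. All 422 chromosome 15 promoters in the table had 60.5% and 0.687. The letters GGGCGG, a GC box, were present on either strand in 62.5% of the 16 promoters, 88.1% of the 67, 12.4% of the 137, 55.9% of all 422 and 46.8% of 16456 promoters of the autosomes with windows. The letters CCAAT were present on either strand in 25%, 64.2%, 38%, 37.7% and 38.9%. A GC box and a CCAAT can overlap by at most 2 bases, and a match is a description of the sequence and not a bound site.

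As a check of the labels, peaks near marker genes were counted. Of 7 naive markers, 6 had a peak in at least 2 of 3 ES lists when all lists were cut to the same length, and 1 of 7 had in FS2. As deposited, 3 of the 7 had in FS2 and 6 in each other line. Zfp42, a naive marker, had a peak in all 3 ES lists and in 1 EpiSC_AF list as deposited. Of 7 formative and primed markers, 5 had a peak in at least 2 FS2 lists as deposited, against 0 in ES and 6 in every other line. At equal length 3 had one in FS2, 3 in FS1 and 4 to 5 in the EpiSC lines. Otx2, a transcription factor of the formative and primed states, did not follow that order, with a peak in 3 FS2 lists and in 1 list each of FS1 and EpiSC_AF. Pou5f1, the pluripotency factor Oct4, had a peak in 1 of 3 lists of FS2 and of ES and in all 3 of each other line. Of 7 markers of feeder fibroblasts, 2 had a peak in at least 2 FS2 lists as deposited, against 1 to 5 in the other lines. First-set lists held 8044 to 31263 peaks, FS2 having 11796 to 14147, and read depth was unknown.

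Chromosome 15 took a larger share of the FS2 lists than of any other list. The 3 FS2 libraries held 807, 682 and 732 peaks on it, which was 5.79%, 5.86% and 5.74% of their autosomal peaks. FS1, the other formative line, held 4.64%, 4.57% and 4.53%. The EpiSC libraries ranged from 3.92% to 4.19% over 9 libraries, and ES held 3.48%, 3.59% and 3.65%. The FS2 values did not overlap with those of the other 15 libraries, and the line means were 5.80 ± 0.0612% (SD, n = 3) in FS2 and 4.05% over the other 5 lines. DNA copy number was not measured, so more copies of the chromosome and more open chromatin per copy cannot be told apart. In the Rd2 lists, whose peak names and shortest peaks differ from those of the first set, the share was 2.58% and 3.02% in ES, 3.66% to 3.98% in EpiLC, and 4.01% and 4.05% in EpiSCs. The Rd2 ES lists were short, at 471 and 2576 peaks, so their shares rested on 12 and 77 peaks of the chromosome.

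**Figure D1:**
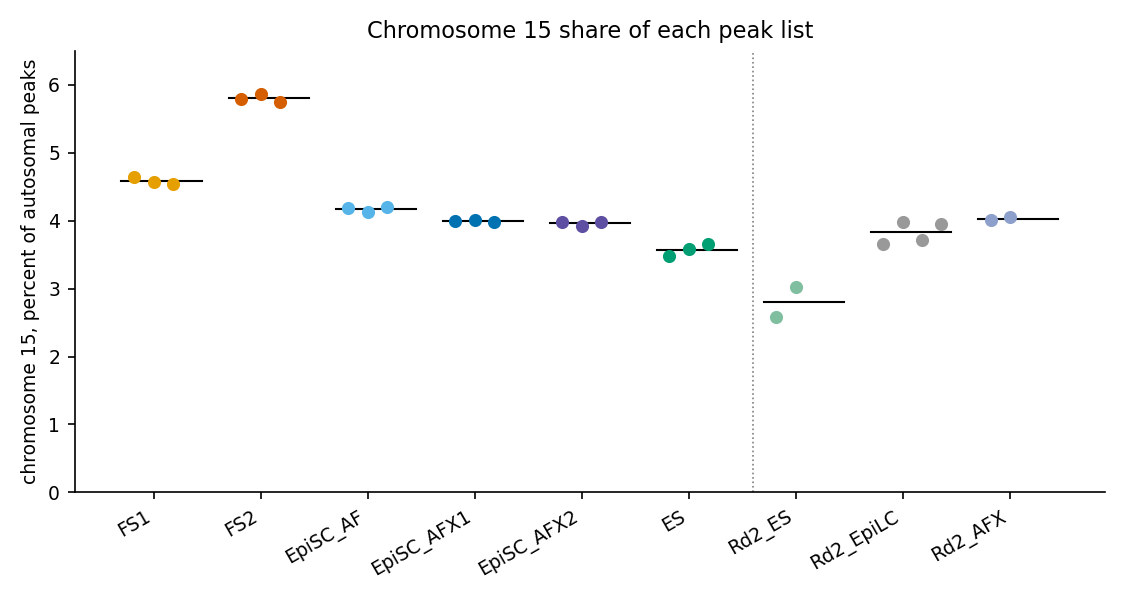
Percent of autosomal peaks on chromosome 15 (vertical axis) in each of the 26 lists, grouped by line (horizontal axis); points are libraries, black bars are means of a group, and the dotted line separates the first set from the Rd2 set. The 3 FS2 points lie between 5.74 and 5.86, above every other library.

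No other autosome stood so far from the other lines. The FS2 share over the mean share of the 5 other lines was 1.43 on chromosome 15, while the other 18 autosomes ranged from 0.885 on chromosome 13 to 1.14 on chromosome 19. Computed for each of the 6 lines and 19 autosomes, the ratio for FS2 on chromosome 15 was the highest of 114, the next being 1.17 for ES on chromosome 13. The lowest of the 114 was also on chromosome 15, at 0.794 in ES, but its denominator included FS2, whose high share there lowers the ratio. With FS2 likewise in its denominator, the ratio on chromosome 15 was 1.07 for FS1, 0.952 for EpiSC_AF, 0.903 for EpiSC_AFX1 and 0.895 for EpiSC_AFX2. No autosome other than chromosome 15 had all 3 FS2 libraries above the other 15.

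**Figure D2:**
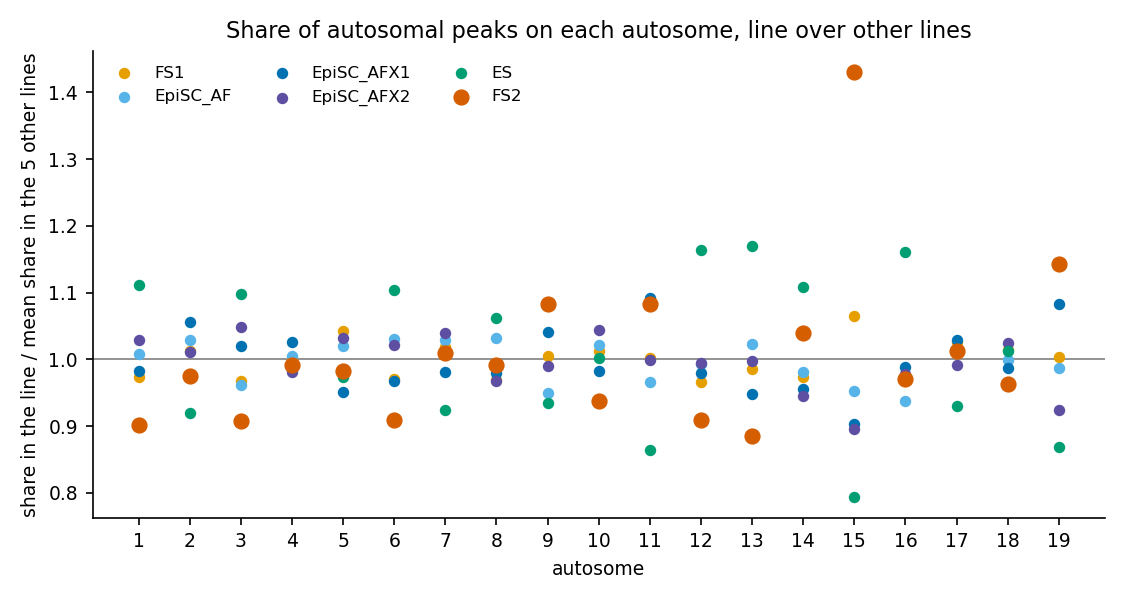
Share of autosomal peaks in a line divided by the mean share in the 5 other lines (vertical axis, which does not start at 0), for autosomes 1 to 19 (horizontal axis) and 6 lines (colours; large points are FS2). FS2 stands at 1.43 on chromosome 15, and its other 18 ratios lie between 0.885 and 1.14.

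With FS2 left out, chromosome 15 still differed among the other lines. The 3 comparisons were tested by exact two-sided permutation of libraries, with Benjamini-Hochberg adjustment over the 3. ES held 3.57 ± 0.0869% (SD, n = 3) and the EpiSCs 4.04 ± 0.102% (SD, n = 9), or −0.47 percentage points for ES minus EpiSC (p = 0.00455 by exact permutation, 0.00682 adjusted), with all 3 ES libraries below all 9 of EpiSCs. FS1 held 4.58 ± 0.0535% (SD, n = 3), which was 0.54 points above the EpiSCs (p = 0.00455 by exact permutation, 0.00682 adjusted), again with no overlap. EpiSC_AF held 4.17 ± 0.0399% (SD, n = 3) and EpiSCs in AFX medium 3.97 ± 0.0283% (SD, n = 6), higher in AF by 0.20 points (p = 0.0119 by exact permutation, 0.0119 adjusted), also with no overlap. These are the smallest p-values that 220 and 84 assignments can give. The comparisons were not run on other autosomes. Set against all 15 other libraries, the 3 ES libraries lay below on chromosome 15 and also on chromosomes 7 and 11. They lay above all 15 on chromosomes 6, 12, 13 and 16, so such a separation of ES was not particular to chromosome 15. With all lists cut to the same length the difference between EpiSC_AF and the AFX cultures was 0.0758 points (p = 0.476 by exact permutation, 0.476 adjusted), while the other comparisons kept their side of the threshold. AF was 1 culture at passage 22 and AFX 2 cultures at other passages, so medium, culture and passage cannot be told apart. ES and FS1 were also 1 culture each, so for them cell state, culture and passage cannot be told apart either. The permutation treated the 9 EpiSC libraries as interchangeable although they came from more than 1 culture. Its p-values therefore say nothing about the spread between cultures.

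Cutting all lists to the 8044 peaks of highest −log10 p, the length of the shortest ES list, took the unequal list lengths out of the comparison. At that length FS2 held 493, 471 and 478 peaks on chromosome 15. FS1 held 349 to 365, the EpiSCs 314 to 347 and ES 267 to 280. The ratio of shares was then 1.48, against 0.919 to 1.13 on the other autosomes. Among the 1000 peaks of highest −log10 p, FS2 had 54, 73 and 73 on chromosome 15, against 26 to 53 in the other 15 libraries, so that at the very top 1 FS2 library was close to FS1.

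Peaks at gene ends and peaks elsewhere both held the excess. Of peaks at most 1 kb from either end of any protein-coding gene, chromosome 15 took 5.22%, 5.26% and 5.23% in FS2 and 3.44% to 4.27% in the other 15 libraries. Of all other peaks it took 6.33% to 6.54% in FS2 and 3.31% to 4.89% elsewhere. The groups did not overlap in either class, and FS2 stood 1.25 points above the mean of the other lines at gene ends and 2.33 points above it elsewhere. Both classes are parts of the share by which the chromosome was chosen, and the other autosomes are not given by class here.

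Of the chromosome 15 regions held by at least 2 FS2 lists, almost none lay where no other line had a peak. At least 2 of the 3 FS2 lists held 635 regions of the chromosome, and peaks found in only 1 FS2 list were not counted. A region was called FS2-alone if none of the other 15 lists as deposited had a peak there, and 3 of the 2882 chromosome 15 regions met this, or 0.104%. The background on the other 18 autosomes was 0.0354%, and chromosome 19 had 0.126%. All 3 were found in 2 of 3 FS2 lists, and 0 in all 3. Without EpiSC_AFX1 replicate 3 the count was 8, or 0.285% against 0.0417% elsewhere, and without FS1 replicate 3 it was 7, or 0.263% against 0.063%. Without FS2 replicate 1 it was 0, against 0.013% elsewhere, and without FS2 replicate 2 it was 1, or 0.0353% against 0.0146%. The count thus rested on single libraries. FS1 and EpiSC lists were longer than those of FS2. In FS1, 52 regions of the chromosome were alone, or 1.80% against 1.46% elsewhere, and in EpiSC_AFX2 32, or 1.11% against 1.51%.

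The first of the 3 regions, chr15:74076013-74076185 in mm10, lay between genes, 236.1 kb from the nearest protein-coding gene. It stood at the percentiles 37.8 and 63.5 of −log10 p in the lists of FS2 replicates 1 and 3. The second, chr15:75062225-75062752, lay 13.3 kb from Ly6c1, a surface protein of the Ly6 family, at the percentiles 2 and 7.6. The third, chr15:89425653-89426121, lay within Cpt1b, the muscle form of carnitine palmitoyltransferase, at 37.5 and 11.7. A percentile of 100 is the strongest peak of a list, so no peak at these 3 regions stood above 63.5. Just outside the rule stood chr15:77674100-77674402, 21.3 kb from Apol7e, with peaks in all 3 FS2 lists at the percentiles 49.5, 11.8 and 16.7 and in 1 EpiSC_AFX1 list. With 1 other list allowed the count was 15, or 0.520% of chromosome 15 regions, against 72 or 0.116% on the other autosomes. The 15 took in regions within Cbx7, a Polycomb subunit, Scn8a, a sodium channel, and Sp7, a transcription factor of bone-forming cells.

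The FS2 regions of chromosome 15 were held by fewer of the other lists than the FS2 regions of other autosomes. As deposited, 25 of the 635 regions, or 3.94%, were held by at most 2 of the other 15 lists, against 1.17% of 10710 elsewhere. All 15 other lists held 18% of the 635 and 27.6% of those elsewhere. At equal length the shares held by at most 2 others were 18.6% of 429 regions and 10.3% of 6537.

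**Figure D3:**
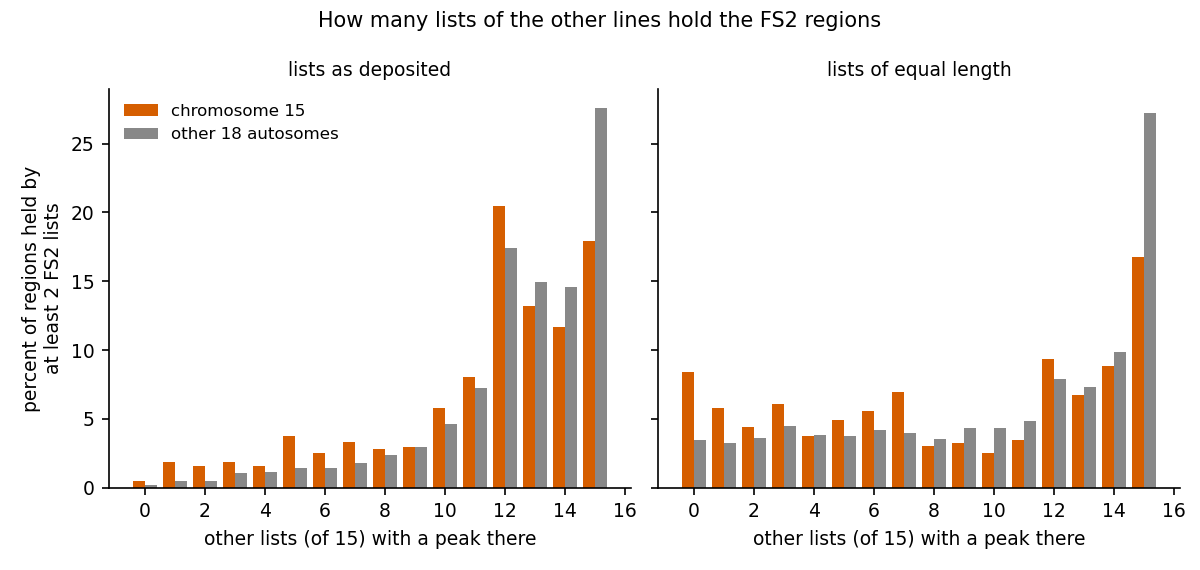
Regions held by at least 2 FS2 lists, by how many of the other 15 lists have a peak there (horizontal axis), as percent of the regions of each part (vertical axis, bars), for lists as deposited and of equal length; orange is chromosome 15 and grey the other 18 autosomes. As deposited, 18% of the chromosome 15 regions and 27.6% of the others were in all 15 lists.

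With all lists cut to equal length, 36 of 1073 chromosome 15 regions were FS2-alone, or 3.36%, against a background of 0.968% on the other autosomes and 2% on chromosome 11, the highest of them. They were 13.8% of the 261 FS2-alone regions of all autosomes. ES, the line with the shortest lists, had 41 regions alone on the chromosome at this length, or 3.82%, against its own share of 5.03% elsewhere. Leaving out 1 FS2 library left 15 to 17 regions, because the rule then asked for both of the others. These were 1.47% to 1.68% of chromosome 15 regions, against 0.329% to 0.528% elsewhere. Every one of the 36 had a peak in at least 1 other list as deposited, with a median of 5 of 15. FS1 held 33 of them in at least 1 full list and 24 in at least 2. The corresponding numbers were 26 and 15 in EpiSC_AFX1, 24 and 15 in EpiSC_AFX2, 19 and 12 in EpiSC_AF and 3 and 0 in ES. These regions were therefore present in other lines' lists, below their 8044 highest peaks.

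The 36 regions were short and of low rank. Their median FS2 peak width was 190 bp and their median percentile 27.5 within the FS2 lists of equal length, against 180 bp and 30.5 for the 225 on the other autosomes. All 429 chromosome 15 regions held by at least 2 FS2 lists had a median of 302 bp and a percentile of 63. Of the 36, 14 lay within 1 kb of a gene end, 14 elsewhere in a gene and 8 between genes. On the other autosomes 38.2% lay between genes, against 22.2% here. The regions that all 18 lists held on chromosome 15 numbered 67, with a median FS2 width of 404 bp. At least 1 of the 8 Rd2 lists, which took no part in choosing them, held 19 of the 36, or 52.8%, and 69.8% of the 225.

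6 of the 36 had a peak in all 3 FS2 lists, as had 31 of the 261 FS2-alone regions of all autosomes. The region chr15:97705668-97705931 lay over the start of Rpap3, a cochaperone that helps assemble RNA polymerase II, at the percentiles 55.1, 60.2 and 30.3. The region chr15:98296087-98296370 lay over the start of Zfp641 at 41.1, 63.6 and 12.8. The region chr15:35371216-35371816 lay within 1 kb of an end of Vps13b, a lipid transfer protein of the Golgi, at 26.6, 56.1 and 12.8. These 3 were found in 7, 5 and 8 of the other 15 lists as deposited, FS1 having 3, 2 and 3 of them. The region chr15:77827378-77828164 lay within Myh9, the heavy chain of nonmuscle myosin, at 0.566, 17.7 and 10.1, and 12 other lists held it as deposited. The remaining 2 lay in keratin genes, chr15:101362225-101362656 within Krt80 at 47.5, 31.2 and 24.9 and chr15:101973732-101973981 within Krt78 at 24.2, 25.4 and 71.1. As deposited, 7 and 9 other lists held these.

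Relative to the other autosomes of the same list, more genes of chromosome 15 had a peak at an end in FS2 than in any other library. Of the 776 protein-coding genes of the chromosome, 52.7%, 45.6% and 51.2% had a peak within 1 kb of an end in the FS2 lists, against 36.3 ± 2.90% (SD, n = 3) of 19885 genes on the other autosomes. The ratio of these percentages was 1.35, 1.37 and 1.39 in FS2 and 0.893 to 1.13 in the other 15 libraries. Set over the mean of the other lines, the FS2 ratio was 1.30, and the other autosomes ranged from 0.923 on chromosome 12 to 1.05 on chromosome 9. The percentage itself was not highest in FS2, being 58.6% to 62.6% in FS1, 47.8% to 60.1% in the EpiSCs, whose lists were also longer, and 20% to 26.4% in ES. At equal length the range was 34.1% to 39.3% in FS2 and 19.7% to 31.2% in the other libraries, with no overlap. For genes of the other autosomes it was 23.3% to 24.6% in FS2 and 21.6% to 27% in the other libraries.

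At equal length 36 genes, 4.64% of the 776, had an end held by at least 2 FS2 lists and by at most 1 list of every other line, against 1.56% of genes elsewhere. Counted over promoter windows only, the number was 16 of the 422 genes with a window, or 3.79%, against 1.37% on the 17 other autosomes with windows. The 16 included Krt18, a keratin of simple epithelia, Maff, a small Maf transcription factor, Pou6f1, a POU domain transcription factor, Bcdin3d, an RNA methyltransferase, and Rapgef3, an exchange factor that responds to cyclic AMP. Ccdc65, Pou6f1, Adamts12, Zfp641, Cpne8 and Rpap3 had no peak in any of the other 15 lists. As deposited, those 6 were held by 7, 13, 4, 5, 12 and 7 of the 15. Syce3 was the single promoter of the 16 that no EpiSC or ES list held as deposited. Its FS2 percentiles at equal length were 76, 50.2 and 46.6, and 1 FS1 list held it there.

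Where every line had a peak, those of chromosome 15 stood above the other autosomes of the same list by more in FS2 than in any other library. Shared regions were those held by at least 2 of 3 lists of every line, 203 on the chromosome and 4984 on all autosomes. Their median percentile of −log10 p on chromosome 15 was 80.5, 74.4 and 79.5 in FS2, below the 88.2 to 91.5 of FS1, overlapping with the 79.3 to 88.4 of the EpiSCs and above the 60.8 to 66.5 of ES. Within each list, that median at the chromosome 15 regions minus that at the other autosomes was 11.3, 9.72 and 10.8 points in FS2. It was 1.59 to 3.78 in FS1, −1.36 to 1.83 in the EpiSCs and −4.37 to −3.51 in ES. FS2 did not overlap with any other line, and ES lay below every other library. Averaged over lines, FS2 exceeded the others by 10.7 points on chromosome 15, and between −6.03 on chromosome 7 and 3.48 on chromosome 16 elsewhere. In FS1 and EpiSC lists the shared regions of other autosomes stood at median percentiles of 78.6 to 88.4, leaving less room above than in FS2, at 64.7 to 69.1, and ES, at 65.1 to 70.

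The rank depended on which column ordered the peaks. By fold enrichment, the linear ratio that the authors deposited for each peak, the same difference was 3.46, −3.45 and 0.204 points in FS2, which overlapped with the other lines. FS2 then exceeded the other lines by 1.42 points, in the sixth place among 19 autosomes that ranged from −4.71 to 4.72. The −log10 p of a peak grows with the number of reads as well as with their enrichment, and no read number was used here to separate them. ES stood at −5.54 to −2.19 by fold, below zero as by −log10 p.

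**Figure D4:**
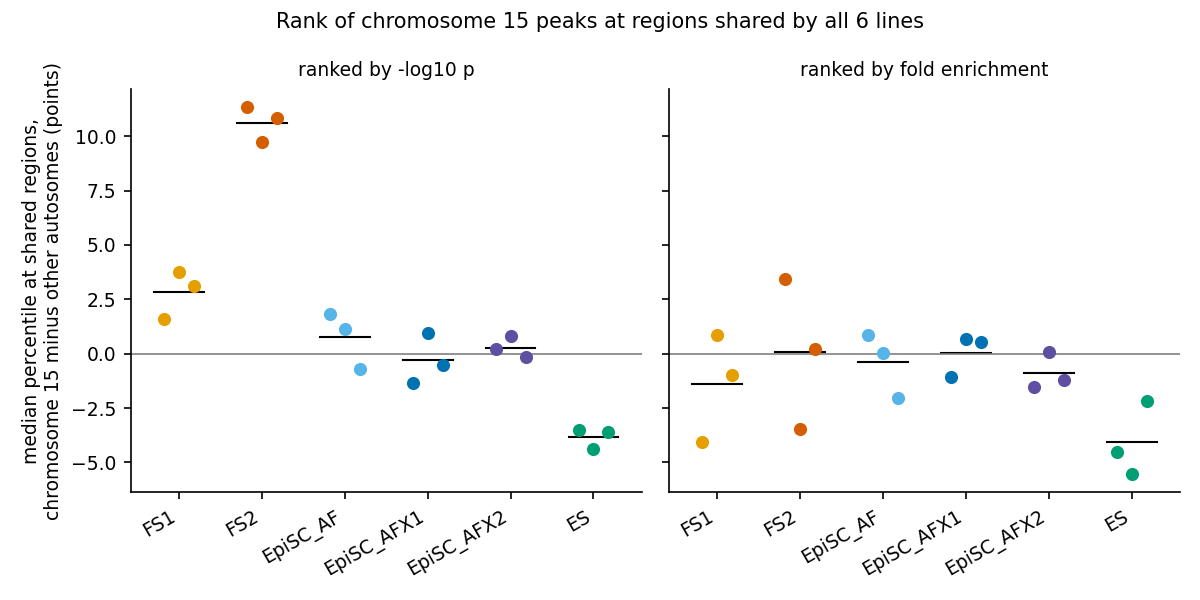
Median percentile of peaks at the 203 shared regions of chromosome 15 minus that at the shared regions of the other autosomes (vertical axis, percentile points), by line (horizontal axis), with peaks ranked by −log10 p (left) and by fold enrichment (right); points are libraries and bars line means. FS2 lies at 9.72 to 11.3 on the left and at −3.45 to 3.46 on the right.

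Region by region, the FS2 percentile minus the mean of the other lines had a median of −0.829 over the 203 shared regions of chromosome 15 and −12.7 over the 4781 of the other autosomes. It was above 0 at 95 of the 203, or 46.8%, against 23.1% elsewhere. The quartiles were −13.4 and 5.91 on chromosome 15 and −25.8 and −0.437 elsewhere. Most shared regions of the chromosome thus ranked lower in FS2 than in the other lines, by less than on the other autosomes. The 5 regions highest in FS2 exceeded the other lines by 30 to 36.4 points. The first, chr15:102065296-102066102, lay 7.7 kb from Eif4b, a translation initiation factor, with FS2 percentiles of 79.7, 79 and 88 and values of 17.1 to 76.8 in the other lists that held it. The region chr15:81831334-81831774, 4.5 kb from Tef, a circadian transcription factor, stood at 92, 93.7 and 91.2 in FS2 and at 41.3 to 88.2 in the other lists that held it. The region chr15:9014669-9016341 within Ranbp3l stood at 60.8, 65.7 and 80.4 in FS2, and 2 ES lists were at 88.9 and 74.5. The remaining pair lay between genes, 87.9 kb from Zfp706 and 73.1 kb from Klf10, a target gene of TGF-beta signalling.

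Some shared regions of the chromosome ranked far lower in FS2. The value of a list is that of its highest peak anywhere in the merged region, which can lie outside a promoter that the region overlaps. The region chr15:88750568-88752061 overlaps the promoter of Zbed4, a zinc finger protein. It stood at 56.1, 0.949 and 10.1 in FS2 and at 53.8 to 95.6 in the other lists that held it. The region chr15:68362708-68363699, 103.8 kb from Zfat, stood at 59.4, 31.2 and 23.1 in FS2 and at 87.5 to 94.5 in all other 15 lists. The region chr15:78982689-78983158, which overlaps the promoter of Triobp, stood at 44.1, 34.3 and 40.3 in FS2 and at 49.3 to 98.6 elsewhere. At Zfat and Triobp the groups did not overlap, and at Zbed4 they did through FS2 replicate 1. These regions were chosen as the lowest of the 203 in FS2 against the other lines, so their separation is only a description. How many other shared regions separated in this way was not counted. The mean of the library medians at shared regions of the other autosomes was also lower in FS2, at 67.5, and in ES, at 67.6. It was 86.7 in FS1 and 84.6 in the EpiSCs.

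Peak width on chromosome 15, set against the other autosomes of the same list, was also highest in FS2. At the shared regions the median summed width was 378, 384 and 390 bp in FS2, which was below the 487 to 515.5 bp of FS1 and the 393 to 484.5 bp of the EpiSCs and above the 293.5 to 323 bp of ES. The FS2 widths were 1.12, 1.24 and 1.14 times those at the other autosomes of each list. The ratio was 1.01 to 1.097 in FS1, 0.954 to 1.01 in the EpiSCs and 0.953 to 0.985 in ES. FS2 lay above all others by this ratio, although its lowest library was close to the highest of FS1. Over the mean of the other lines the FS2 ratio was 1.17, while the other autosomes ranged from 0.946 to 1.04. Over all chromosome 15 peaks, shared or not, the median was 272.5 to 295 bp in FS2 and 271.5 to 319.5 bp in the other libraries. On the other autosomes of the FS2 lists it was 251 to 273 bp, a ratio of 1.03 to 1.09 that overlapped with the 0.951 to 1.05 of the other libraries. The median percentile of all chromosome 15 peaks was 52.3 to 55.7 in FS2 and 45.9 to 53.3 in the other libraries, so the ranges overlapped when regions were not matched.

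A set of regions that played no part in choosing the chromosome gave a further view. Both Rd2 lists of EpiSCs in AFX medium held 294 regions on chromosome 15 and 6994 on the other autosomes. The FS2 lists held 90.5%, 84.4% and 89.1% of the first and 81.9%, 72.7% and 78.3% of the second, a difference of 8.56, 11.6 and 10.8 points. In the other 15 libraries the difference was −4.07 to 1.44 points and did not overlap with FS2. FS1 and the EpiSCs held 88.7% to 98.4% of the regions on other autosomes, which left them little room, whereas ES held 50.3% to 59.1% and had the lowest difference, in 1 library. FS2 exceeded the mean of the other lines by 10.4 points on chromosome 15 and by −5.44 to 3.55 points on the other autosomes. The FS2 lists are the same ones from which the chromosome was chosen, so this is a description too.

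The higher share was spread along most of the chromosome. In 21 bins of 5 Mb, the FS2 share over that of the other lines was above 1 in 17 and above 1.2 in 13. Its median was 1.29, against 0.923 over 480 bins of the other autosomes. All 3 FS2 libraries were above the other 15 in 9 of the 21 bins, and in 1.46% of bins elsewhere. The highest ratios were 1.74 at 35 to 40 Mb, 1.73 at 75 to 80 Mb and 1.71 at 30 to 35 Mb. The bin at 75 to 80 Mb, with 157 genes, alone held 367 FS2 peaks. The lowest were 0.516 at 15 to 20 Mb, 0.75 at 45 to 50 Mb, 0.817 at 60 to 65 Mb and 0.822 at 20 to 25 Mb, and these bins held 2, 2, 11 and 4 protein-coding genes.

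FS2 lists leaned towards gene-rich bins on the other autosomes too, and chromosome 15 had the higher ratio in each gene class. In bins with under 20 genes, the ratio was 1.07 on chromosome 15 and 0.708 on the other autosomes. It was 1.42 and 0.973 in bins with 20 to 59 genes, and 1.57 and 1.09 in bins with 60 or more. Across bins, ratio and gene number had a Spearman rho of 0.788 over the 21 bins of chromosome 15 and 0.666 over the 480 others, given as a description because bins share the same libraries. The 4 lowest bins rested on 6 to 33 FS2 peaks summed over the libraries, and at 15 to 20 Mb the 3 FS2 ratios ran from 0.228 to 0.821.

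**Figure D5:**
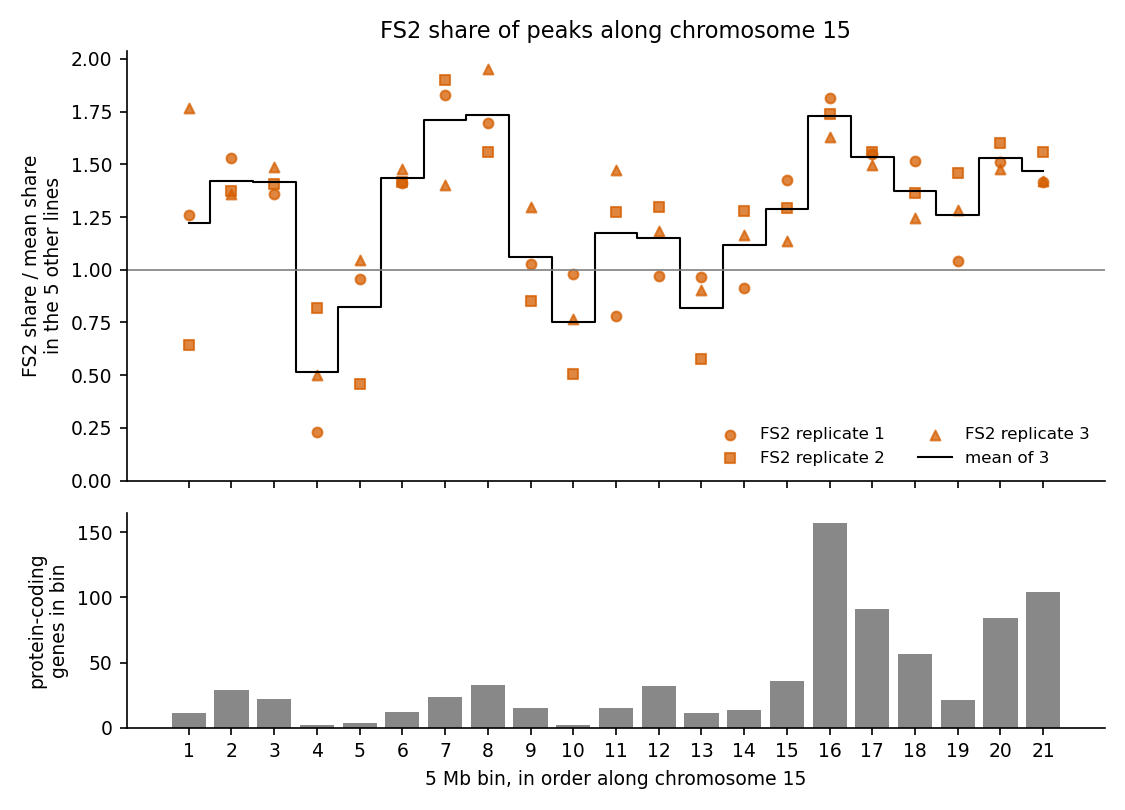
Upper panel, FS2 share of peaks divided by the mean share of the 5 other lines (vertical axis) in 21 bins of 5 Mb in order along chromosome 15 (horizontal axis), with symbols for the 3 FS2 libraries and a line for their mean; lower panel, protein-coding genes per bin. The mean is above 1 in 17 bins, and the 4 bins below 1 hold 2 to 11 genes.

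6 gene families of the chromosome, with 110 genes in all, were read for peaks at equal length. Counts are genes with a peak in at least 2 of 3 lists, in the gene or 1 kb around it. By this rule 45.5% of all 776 protein-coding genes of chromosome 15 had a peak in FS2 and 25.8% to 36.6% in the other lines, against 29.6% and 26.9% to 32.1% of the 19885 genes on the other autosomes. No test was made of a family against this share. Of 24 long genes of neural and adhesion proteins, 14 had one in FS2 and 8 to 12 in the other lines, with 72 peaks summed over the FS2 lists and 31 to 56 elsewhere. Scn8a accounted for 13 of these FS2 peaks and had 1 to 8 in the other lines. Cdh6, a cadherin, had peaks in 3 FS2 lists, 2 lists each of EpiSC_AFX2 and ES, 1 of EpiSC_AF and 0 of FS1. Of 15 keratin and lineage genes, 4 had one in FS2 and 0 to 2 elsewhere. Sp7 had peaks in 2 FS2 lists and in 0 of the other 15, and Krt18 in 2 and 2.

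In the other 4 families the FS2 counts of genes lay within or at the top of the range of the other lines. Of 25 chromatin and transcription genes, 16 had one in FS2 and 11 to 16 in the other lines, with 60 peaks in FS2 and 41 to 53 elsewhere. Ep300 and Kmt2d, a histone methyltransferase, had peaks in all 3 lists of every line, except that Kmt2d had them in 2 of 3 ES lists, whereas Cbx7 had 5 peaks in FS2 and 0 to 3 elsewhere. Of 24 signalling and pluripotency genes, 12 had one in FS2 and 9 to 13 elsewhere. Acvr1b, a receptor for activin, had peaks in all 18 lists, and Myc in 2 FS2 lists against 0 to 2 of each other line. Rarg, a retinoic acid receptor, had none in FS2 at equal length and peaks in 3 EpiSC_AF lists. Of 13 translation and RNA-binding genes, 7 had one in FS2 and 6 to 7 elsewhere. Eif3l, a subunit of initiation factor eIF3, had peaks in 2 FS2 lists and in 2 of EpiSC_AFX1. Of the 9 Hoxc genes, 1 had one in FS2 and 0 to 1 elsewhere. In the lists as deposited the order differed, with 16 of the 24 long genes in FS2 and 23 in FS1, and 4 of the 15 keratin and lineage genes in FS2 and 7 in FS1.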

How the data were processed

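ATAC-seq was run on 26 mouse libraries of 50000 cells each, and 1 peak list per library was analysed. The submitters' processing notes name Trim Galore, Bowtie, Picard, MACS2 and the build mm10, and their versions, roles and settings are not given in the sources used here. The deposited columns are a score, the fold enrichment (a linear ratio) and, as −log10 values, the p and the q of each peak, all computed by the authors per library, without pooling. No read counts were used, so depth is unknown and list length, 8044 to 31263 peaks in the first set, is the nearest stand-in. The first-set peak names carry a processing tag that the Rd2 names lack, so levels were not compared between the sets.

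Peaks of the 18 first-set lists that overlapped or touched were merged to union regions. A line held a region if at least 2 of its 3 lists did. A percentile is the rank of a peak's −log10 p within its list, 100 being the highest. Lists of equal length kept the 8044 peaks of highest −log10 p. Genes and promoter windows came from RefSeq tables for GRCm38.p6, in which 422 of 776 protein-coding chromosome 15 genes had a window, and the 134 genes of the lists all matched. Exact two-sided permutation tests with Benjamini-Hochberg adjustment (threshold 0.05) were run on 3 comparisons without FS2. Named were regions and promoters that FS2 held and the other lists did not, the 5 highest and 3 lowest shared regions, and members of the gene lists. No region alone in FS2 was in all 3 FS2 lists as deposited, so the 6 at equal length were described. The members, gene lists and rules were chosen with earlier results of these data known. The scripts were tested on simulated data and used Python 3.11.15, numpy 2.4.6, pandas 2.3.3 and scipy 1.17.1. Alternatives were equal list length, a −log10 q of at least 2, base pairs in place of peaks, stricter and looser region rules, ranking by fold, wider bins, leaving out each library and a replicate block.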

Additional observations from a re-analysis of the deposited data

Results flagged for a closer look

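Among the 6 libraries of EpiSCs in AFX medium, EpiSC_AFX2 replicate 2 had the lowest chromosome 15 share, 3.92% of autosomal peaks. Its gap to the next library was large for the narrow range of the group, since the other 5 lay between 3.97% and 4.01%. It was the 1 value found among 12 combinations of a group and a measure that were screened, and chance gives such a gap in about 1 in 20 groups.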

How the results depend on the processing

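The differences of ES and FS1 from the EpiSCs kept their direction and side of the threshold under every alternative run, with −0.505 to −0.419 and 0.511 to 0.563 points when 1 library was left out. EpiSC_AF against AFX ran from 0.183 to 0.218 when 1 library was left out, but was 0.0758 (adjusted exact permutation p = 0.476) at equal list length. With replicate numbers as a block, the 3 differences were −0.465, 0.540 and 0.195, and the exact permutation p-values, the smallest possible, were 0.0156, 0.0156 and 0.037 (adjusted 0.0234, 0.0234 and 0.037), so no call changed. The numbers were not taken as pairs in the main tests. Libraries of the same number had a mean correlation of deviations of 0.0987, above 0.1 in 20 of 45 pairs. Libraries of different numbers had a lower mean, −0.0486, above 0.1 in 30 of 90 pairs. The ranges overlapped, at −0.568 to 0.747 and −0.799 to 0.746.

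The FS2 share minus that of the other lines, 1.74 points, was 1.96 at equal list length, 1.94 with a −log10 q of at least 2, 1.93 by base pairs, 1.62 without the ES line, 1.25 for gene-end peaks, 2.33 for other peaks and 1.71 to 1.77 with 1 library left out. The 3 FS2-alone regions were 0.104% of chromosome 15 regions, against 0.0354% (22 regions) on the other autosomes. At equal list length they became 36, or 3.36% against 0.968% (225 regions). With a −log10 q of at least 2 the count was 5, or 0.257% against 0.0319% (14 regions). It was 0 when all 3 FS2 lists were required, against 0.00322% (2 regions). With 1 other list allowed it was 15, or 0.520% against 0.116% (72 regions). With 1 library left out it was 0 to 8, or 0% to 0.285% against 0.013% to 0.063% (8 to 37 regions). The 36 at equal list length became 15 to 40 with 1 library left out, or 1.47% to 3.75%, against 0.329% to 1.12% on the other autosomes. The shared-region percentile difference of 10.7 points was 9.79 both at equal list length and with a −log10 q of at least 2, 8.67 over regions of all 18 libraries, 1.42 by fold enrichment, 9.74 without the ES line and 9.25 to 11.4 with 1 library left out. The width ratio of 1.17 stayed between 1.13 and 1.18. In bins of 10 Mb the median ratio along the chromosome was 1.38. Leaving out an FS2 library makes the rule ask for both others, and the cause of the other changes was not tested. Unknown depth limits what absence from a list can show.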
